A study of Homo sapiens with 9 samples.

Results

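The replication-dependent histone genes form a handful of compact clusters in the human genome and were followed here as a single group of ChIP-seq peaks. A peak belonged to the group when the deposited nearest-gene name began with HIST1H, HIST2H, HIST3H or HIST4H. By this rule 204 of 34575 ARID peaks were histone peaks. They comprised 67 of 12852 ARID1A peaks (0.521%), 55 of 8728 ARID1B peaks (0.63%) and 82 of 12995 ARID2 peaks (0.631%). All libraries came from HepG2, an established human liver cancer cell line, and the labels name no treatment or genetic change. Each of ARID1A, ARID1B, ARID2 and SNF5 was immunoprecipitated in 2 replicates beside 1 input library, and the authors merged both replicates before calling 1 peak list per subunit. No replicate error can therefore be given for any value below, the depth behind each list is unknown, and the subunit cannot be told apart from its antibody. Intervals on shares are 95% Wilson intervals and cover counting error over peaks or genes only.

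Histone genes of this class supply the H1 linker histone and the core histones H2A, H2B, H3 and H4 that package newly replicated DNA. They are short, mostly intronless genes that are expressed in S phase, and their mRNAs end in a stem-loop in place of a poly(A) tail. Many H2A and H2B genes lie head to head and share a promoter. ARID1A, ARID1B and ARID2 are alternative subunits of SWI/SNF, an ATP-dependent chromatin remodeler. ARID1A and ARID1B mark the BAF form, ARID2 marks the PBAF form, and SNF5 is a core subunit of both. Among liver genes taken as markers of HepG2, ALB, AFP, APOA1, APOB, SERPINA1, HNF4A, FOXA1 and FOXA2 each had at least 1 ARID peak assigned to them, and TTR had none. A peak list records occupancy and not expression, so the cell identity was checked no further.

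The sequences that separate the genes make the compactness of these loci visible. Of 70 protein-coding histone genes placed on GRCh37, 26 formed 13 head-to-head pairs whose starts lay at most 1000 bp apart. The 5 pairs printed first had peaks of all 3 ARIDs and of SNF5 that shared at least 1 bp with the interval between their starts. Each stretch is the complete interval between both starts on the plus strand of GRCh37, 5′ to 3′, with the gene on the minus strand named first. Capitals mark matches on either strand to CCAAT, a promoter element bound by the factor NF-Y, to TATAAA, the common form of the TATA box, to ATTTGCA, part of the octamer element of H2B promoters, or to TTTCGCG, an element of the type bound by E2F factors. Matches to TATAAA on opposite strands may overlap.
HIST1H2AD-HIST1H2BF at chr6:26199522-26199743: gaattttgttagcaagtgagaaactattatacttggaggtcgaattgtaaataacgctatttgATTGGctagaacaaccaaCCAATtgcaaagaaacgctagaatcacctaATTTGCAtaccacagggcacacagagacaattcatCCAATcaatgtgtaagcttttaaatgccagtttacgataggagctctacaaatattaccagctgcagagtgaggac
HIST1H2BG-HIST1H2AE at chr6:26216917-26217148: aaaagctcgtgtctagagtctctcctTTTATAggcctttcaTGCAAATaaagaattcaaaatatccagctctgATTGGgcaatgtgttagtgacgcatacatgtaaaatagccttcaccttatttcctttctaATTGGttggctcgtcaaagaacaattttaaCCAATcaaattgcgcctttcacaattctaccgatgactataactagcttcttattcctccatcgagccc
HIST1H2BL-HIST1H2AI at chr6:27775708-27775950: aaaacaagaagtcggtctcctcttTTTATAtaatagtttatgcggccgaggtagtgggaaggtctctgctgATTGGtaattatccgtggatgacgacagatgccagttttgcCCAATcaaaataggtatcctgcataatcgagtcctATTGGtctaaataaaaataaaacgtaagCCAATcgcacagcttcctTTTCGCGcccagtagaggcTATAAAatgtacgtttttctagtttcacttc
HIST1H2AJ-HIST1H2BM at chr6:27782556-27782799: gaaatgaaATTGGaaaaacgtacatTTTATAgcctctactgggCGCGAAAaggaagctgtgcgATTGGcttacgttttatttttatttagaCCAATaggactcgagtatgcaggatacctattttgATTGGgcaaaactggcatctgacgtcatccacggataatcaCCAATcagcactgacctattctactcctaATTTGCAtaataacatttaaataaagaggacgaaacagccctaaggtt
HIST1H2AK-HIST1H2BN at chr6:27806154-27806346: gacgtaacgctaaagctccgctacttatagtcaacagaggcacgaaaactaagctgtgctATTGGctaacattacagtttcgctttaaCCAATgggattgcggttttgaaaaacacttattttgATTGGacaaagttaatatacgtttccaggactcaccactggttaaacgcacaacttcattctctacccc

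The same arrangement occurred without any peak. The following pairs lay in a stretch of chromosome 6 that held no peak of any of the 4 lists and are shown for contrast, having been chosen after their values were seen.
HIST1H2BJ-HIST1H2AG at chr6:27100575-27100821: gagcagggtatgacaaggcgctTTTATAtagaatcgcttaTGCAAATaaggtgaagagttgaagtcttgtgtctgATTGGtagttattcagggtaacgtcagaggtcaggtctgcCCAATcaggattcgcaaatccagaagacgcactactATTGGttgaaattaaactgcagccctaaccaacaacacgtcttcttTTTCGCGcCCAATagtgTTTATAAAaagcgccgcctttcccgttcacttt
HIST1H2BK-HIST1H2AH at chr6:27114635-27114884: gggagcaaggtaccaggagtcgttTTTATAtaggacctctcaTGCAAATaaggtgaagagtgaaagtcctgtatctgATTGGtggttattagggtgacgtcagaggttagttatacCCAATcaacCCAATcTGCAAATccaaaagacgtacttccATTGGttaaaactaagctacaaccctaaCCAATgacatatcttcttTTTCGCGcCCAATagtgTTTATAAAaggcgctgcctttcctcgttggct

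Other histone promoters are single. The 250 bases before the start are given, on the coding strand, for HIST1H4C and HIST1H4J, whose SNF5 peaks had the highest scores of any at a histone gene, and for HIST1H1C, the coding gene with as many ARID peaks (9) as any other.
HIST1H4C at chr6:26103911-26104160, plus strand: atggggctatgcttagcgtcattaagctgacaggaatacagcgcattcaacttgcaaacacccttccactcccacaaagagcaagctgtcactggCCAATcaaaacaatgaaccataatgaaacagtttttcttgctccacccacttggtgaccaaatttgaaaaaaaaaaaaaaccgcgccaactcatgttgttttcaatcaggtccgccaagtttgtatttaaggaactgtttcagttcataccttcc
HIST1H4J at chr6:27791620-27791869, plus strand: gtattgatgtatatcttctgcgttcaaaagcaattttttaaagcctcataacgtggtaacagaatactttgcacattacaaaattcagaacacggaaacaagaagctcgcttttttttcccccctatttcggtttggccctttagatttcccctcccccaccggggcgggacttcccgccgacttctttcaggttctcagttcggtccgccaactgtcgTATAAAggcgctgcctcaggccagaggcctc
HIST1H1C at chr6:26056699-26056948, minus strand: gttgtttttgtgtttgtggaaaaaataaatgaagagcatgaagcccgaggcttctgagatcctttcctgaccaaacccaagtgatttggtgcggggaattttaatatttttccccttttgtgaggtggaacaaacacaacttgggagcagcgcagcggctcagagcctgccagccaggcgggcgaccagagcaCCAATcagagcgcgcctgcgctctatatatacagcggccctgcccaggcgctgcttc

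Among the 70 histone promoters, taken as the 250 bases upstream of each start, the median GC content was 43.2%, against 63.2% over 19881 protein-coding promoters of the same length. CCAAT was present in 59 of 70 (84.3%, against 34.2% of all promoters), TATAAA in 46 (65.7%, against 9.26%), ATTTGCA in 26 (37.1%, against 2.94%) and TTTCGCG in 12 (17.1%, against 1.48%). Both strands were searched, and a head-to-head pair shares its matches, so these promoters are not independent of each other. HIST2H2AA3, placed by its gene start, held no CCAAT or TATAAA, while its near copy HIST2H2AA4 held 2 and 1 matches. The counts take HIST2H2AA3 at that start. The families differed in these letters. ATTTGCA was found in 14 of 18 H2B and 12 of 17 H2A promoters and in 0 of 6 H1, 14 H3 and 15 H4 promoters, and CCAAT was found in all 14 H3 promoters and in 5 of 15 H4 promoters. Histone genes without any ARID at the start carried these elements too. CCAAT was present at 29 of 37 genes with all 3 ARIDs at the start and at 28 of 29 genes with none, TATAAA at 25 of 37 (67.6%) and 17 of 29 (58.6%), ATTTGCA at 15 of 37 (40.5%) and 11 of 29 (37.9%), and TTTCGCG at 6 of 37 (16.2%) and 6 of 29 (20.7%). A match describes the sequence only and is not a binding site.

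The question of how many histone genes were occupied was asked gene by gene, by counting genes with a peak within 1000 bp of the annotated start. ARID1A was found at 40 of 70 coding histone genes (57.1%, interval 45.5 to 68.1%), against 35.2% of 19881 protein-coding genes. ARID1B was found at 38 (54.3%, interval 42.7 to 65.4%), against 11.4%. ARID2 was found at 41 (58.6%, interval 46.9 to 69.4%), against 30.2%. SNF5 was found at 45 (64.3%, interval 52.6 to 74.5%), against 41.2%. The excess over the genome-wide share was thus widest for ARID1B, the subunit with the shortest list.

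The 3 ARIDs occupied nearly the same histone genes. All 3 were present at 37 genes (52.9%, against 8.31% of all protein-coding genes), a subset was present at 4 genes and none at 29. Any ARID was present at 41 of the 70 genes, against 41.9% of all protein-coding genes. Among the 41 histone genes with any ARID at the start, 37 had all 3 (90.2%, interval 77.5 to 96.1%), whereas 1653 of 8332 protein-coding genes with any ARID had all 3 (19.8%). SNF5 was present at each of the 41. Of all protein-coding genes, 8189 had SNF5 at the start, and only 1160 of these had no ARID there. Most of the 8332 genes with any ARID thus had SNF5 genome-wide too. Neighbouring histone starts often lie under a single peak, so these genes count fewer independent sites than their number. Merging ARID peaks that shared at least 1 bp gave 88 histone regions, of which 34 held all 3 ARIDs (38.6%, interval 29.1 to 49.1%), against 7.55% of 25247 merged regions in the whole series.

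**Figure D1:**
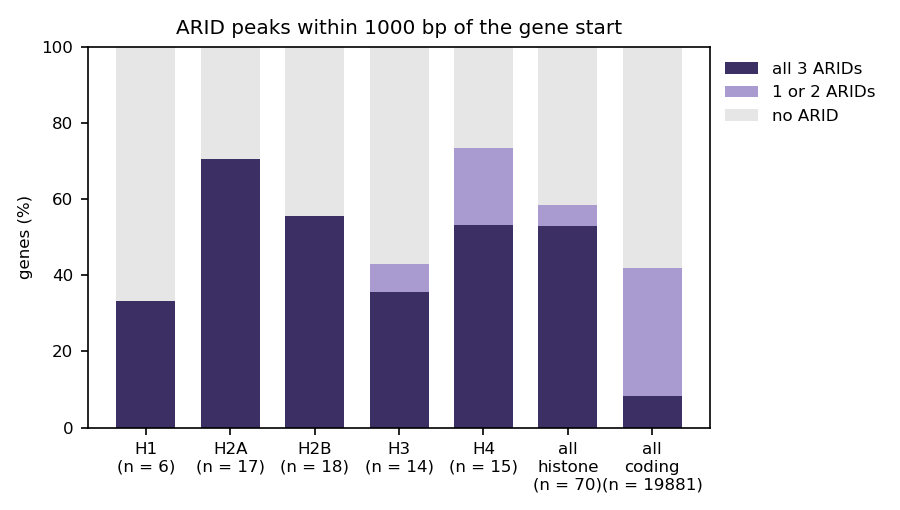
Share of genes, in percent, with peaks of all 3 ARIDs, of 1 or 2 ARIDs or of none within 1000 bp of the gene start, for each histone family, for all 70 coding histone genes and for 19881 protein-coding genes. Bars of the H1, H2A and H2B families hold no gene with only 1 or 2 ARIDs, while that class is the larger part of the occupied genes genome-wide.

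The 4 genes with a subset were HIST2H3C, HIST4H4, HIST1H4A and HIST1H4D. HIST4H4, the single H4 gene on chromosome 12 and the only member of its cluster, had an ARID1B peak of 192 bp at its start and an ARID2 peak of 479 bp over the same position, with an SNF5 peak of score 28. The nearest ARID1A peak lay 1018236 bp away. HIST1H4A had an ARID1A peak of 97 bp over its start and an ARID2 peak of 175 bp that began 227 bp downstream, and these did not overlap. HIST1H4D had ARID1A and ARID2 peaks over its start, and the nearest ARID1B peak was 6669 bp away. HIST2H3C had ARID1A and ARID2 at the start and an ARID1B peak 1077 bp from it, just outside the limit. HIST1H3A lay just outside for 2 subunits, with ARID1A at 1132 bp and ARID2 at 1425 bp, and HIST1H4H just inside for ARID1A at 809 bp.

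Occupancy differed in number between the families. All 3 ARIDs were present at 12 of 17 H2A genes and 10 of 18 H2B genes, the partners in nucleosome assembly that share promoters, and the remaining genes of both families had none. The H4 genes followed with 8 of 15 and the H3 genes with 5 of 14. Of 6 H1 genes, HIST1H1C and HIST1H1E had all 3, and HIST1H1A, HIST1H1B, HIST1H1D and HIST1H1T had no ARID at the start. With so few genes a family, the intervals overlapped, from 46.9 to 86.7% for H2A and from 16.3 to 61.2% for H3. HIST1H1T, HIST1H2AA, HIST1H2BA and HIST3H3, which are known as genes expressed in testis, had no peak of any list within 1000 bp.

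Genes without an ARID formed several runs of neighbours along the clusters. The large HIST1 cluster on chromosome 6 split into 4 runs of genes separated by more than 200 kb. The run from HIST1H1A to HIST1H4H held 32 genes over 267.7 kb, of which 18 had all 3 ARIDs and 12 had none. Within it, 8 neighbouring genes from HIST1H3E to HIST1H2BI had no ARID at the start. Around HIST1H2BH, inside this stretch, the nearest peaks were 34176 bp away for ARID1A, 33956 bp for ARID1B, 33691 bp for ARID2 and 16022 bp for SNF5. The genes of that stretch were named after their values were seen, as were the other genes without a peak below.

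The run of 5 genes from HIST1H2BJ to HIST1H2AH, over 14.3 kb, was empty in all 4 lists. It lay in a gap between neighbouring peaks of 547.3 kb for ARID1A, 843.7 kb for ARID1B, 220.6 kb for ARID2 and 218.9 kb for SNF5. Windows of 50 bases, the length of the reads, that occur more than once in GRCh37 made up from 0.735% (HIST1H4I) to 26.8% (HIST1H2BK) of the windows within 500 bp of these starts. The median over all 70 genes was 1.21%, and only HIST1H4I of this run lay below it. The rest of the gap was not searched for repeated sequence, and whether it bears on the missing peaks was not tested. In the last run, from HIST1H2BL to HIST1H2BO, 11 of 16 genes over 85.5 kb had all 3 ARIDs, and HIST1H2AL, HIST1H1B, HIST1H3I, HIST1H4L and HIST1H3J had none. The pair HIST1H2AA and HIST1H2BA formed the remaining run, with no peak. The 3 HIST3 genes on chromosome 1 had none either, and the nearest SNF5 peak ended 17.9 kb before them. Of the 29 genes without an ARID, 4 had an SNF5 peak within 1000 bp of the start (13.8%, interval 5.50 to 30.6%). Over all protein-coding genes without an ARID, 1160 of 11549 had one, a share inside that interval. The 4 were HIST1H1B, with a peak over the start, HIST2H2BF at 83 bp, HIST1H1D at 179 bp and HIST1H3A at 691 bp.

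**Figure D2:**
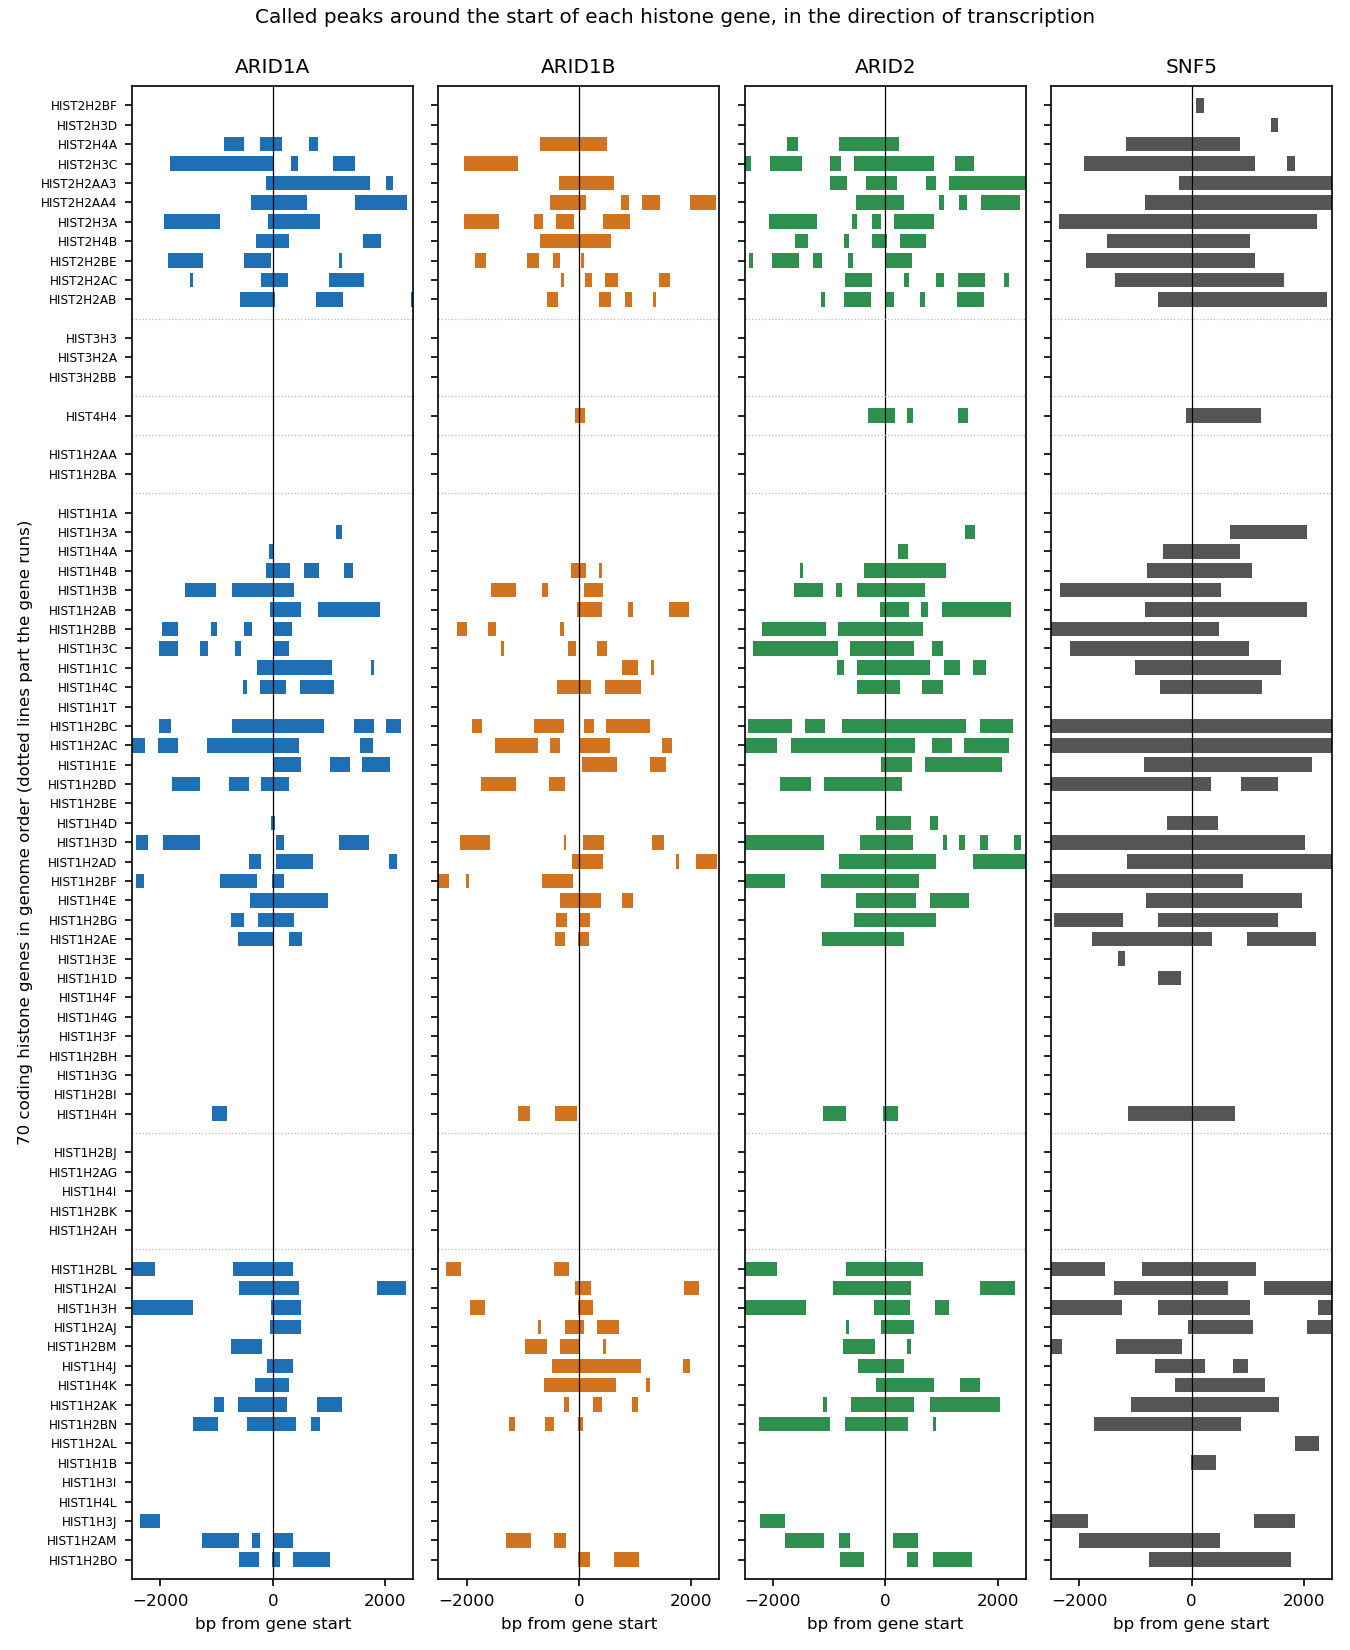
Each row is 1 of 70 coding histone genes in genome order, each panel is the peak list of a subunit, and bars show the called peaks from 2500 bp upstream to 2500 bp downstream of the gene start (vertical line, bp, in the direction of transcription). Rows are filled in all 4 panels or in none for most genes, and the 5 rows from HIST1H2BJ to HIST1H2AH are blank throughout.

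The HIST2 cluster on chromosome 1 carries an inverted duplication that limits what short reads can tell. Of its 11 coding genes, 8 had all 3 ARIDs, HIST2H3C had 2 of them, and HIST2H2BF and HIST2H3D had none. Within 500 bp of the start, HIST2H4A and HIST2H4B shared 100% of their 50-base windows, HIST2H3C and HIST2H3A shared 99.6%, and HIST2H2AA3 and HIST2H2AA4 shared 83.2%. HIST2H2AA3 was placed by its gene start, and this gene was 974 bp long, against 534 bp for its copy HIST2H2AA4. The 83.2% therefore compares stretches around unlike starts and does not measure how far these copies differ. More than 50% of 50-base windows occurred elsewhere in the genome in 28 of 39 HIST2 peaks, in 5 of 161 HIST1 peaks and in 0 of 4 HIST4 peaks. Which copy was occupied is therefore uncertain for these 6 genes, and a difference between copies, such as the ARID1B peaks near HIST2H3A but not at HIST2H3C, cannot be read as a difference in binding. Without the 8 genes whose starts were repeated in this way, 32 of 62 histone genes had all 3 ARIDs, which was 91.4% of the 35 with any. HIST2H2BE, HIST2H2AC and HIST2H2AB, outside the duplication, had all 3. In the shared promoter of HIST2H2BE and HIST2H2AC, an ARID1A peak covered most of the interval between the starts. The ARID2 peak entered it only by its edge, from -6 to 473 bp of the HIST2H2BE start (negative is upstream). The ARID1B peaks lay 38 and 105 bp from the starts.

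Seen from the peaks, the same overlap was found. Another ARID overlapped 58 of 67 ARID1A histone peaks (86.6%, interval 76.4 to 92.8%), against 47.6% of all ARID1A peaks. It overlapped 51 of 55 ARID1B histone peaks (92.7%, interval 82.7 to 97.1%), against 40.1%, and 59 of 82 ARID2 histone peaks (72.0%, interval 61.4 to 80.5%), against 46.9%. In the promoter class the shares were 44 of 46 for ARID1A, 47 of 48 for ARID1B and 44 of 59 for ARID2, against 49.9%, 65.5% and 53.3% of all promoter-class peaks. By single partner, ARID2 overlapped 55 of 67 ARID1A histone peaks (82.1%, against 40.4%) and 47 of 55 ARID1B histone peaks (85.5%, against 27.2%). ARID1A overlapped 41 of 55 ARID1B histone peaks (74.5%, against 32.1%) and 54 of 82 ARID2 histone peaks (65.9%, against 41.7%). ARID1B overlapped 35 of 67 ARID1A histone peaks (52.2%, against 20.9%) and 42 of 82 ARID2 histone peaks (51.2%, against 18.1%). Both other ARIDs overlapped 32 ARID1A histone peaks (47.8%, against 13.7%), 37 ARID1B histone peaks (67.3%, against 19.2%) and 37 ARID2 histone peaks (45.1%, against 13.0%). All 204 peaks carried the deposited single or multiple label that the overlap gives. Of the 36 single peaks, 23 were ARID2 peaks, 9 were ARID1A peaks and 4 were ARID1B peaks, and their median width was 135.5 bp, against 328 bp over all histone peaks. Wider peaks have more bases to share, and among the widest 50% of peaks the shares were 90.9%, 92.5% and 78.9% for ARID1A, ARID1B and ARID2, against 51.2%, 40.4% and 49.6% of all peaks so chosen.

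Counting a single shared base as overlap, SNF5 was also found more often at histone peaks than in the whole lists. SNF5 overlapped 60 of 67 ARID1A histone peaks (89.6%, interval 80.0 to 94.8%), against 71.3% of all ARID1A peaks. The corresponding numbers were 52 of 55 for ARID1B (94.5%, interval 85.1 to 98.1%, against 62.9%) and 70 of 82 for ARID2 (85.4%, interval 76.1 to 91.4%, against 67.2%). Within the promoter class, 46 of 46 ARID1A, 47 of 48 ARID1B and 53 of 59 ARID2 histone peaks were overlapped by SNF5, against 73.5%, 77.2% and 70.5% of all promoter-class peaks. With a reciprocal overlap of 50% the share was lower than in the whole list for ARID1A (8.96%, against 13.0%) and ARID1B (3.64%, against 5.58%). It was higher for ARID2 (12.2%, against 7.56%). These small shares rest on few of the 67, 55 and 82 histone peaks and carry no interval, so neither direction is established at this limit. The 22 histone peaks without SNF5 were narrow, with a median width of 108 bp, and 17 of them were single. SNF5 overlapped 34 of the 34 merged regions with all 3 ARIDs, 17 of 18 with 2 and 19 of 36 with 1. Their median widths were 1276.5, 479.5 and 135.5 bp, and a wider region reaches an overlap of 1 bp more easily. The SNF5 share over the merged regions of the whole series was not computed, so this order cannot be called particular to histone regions.

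**Figure D3:**
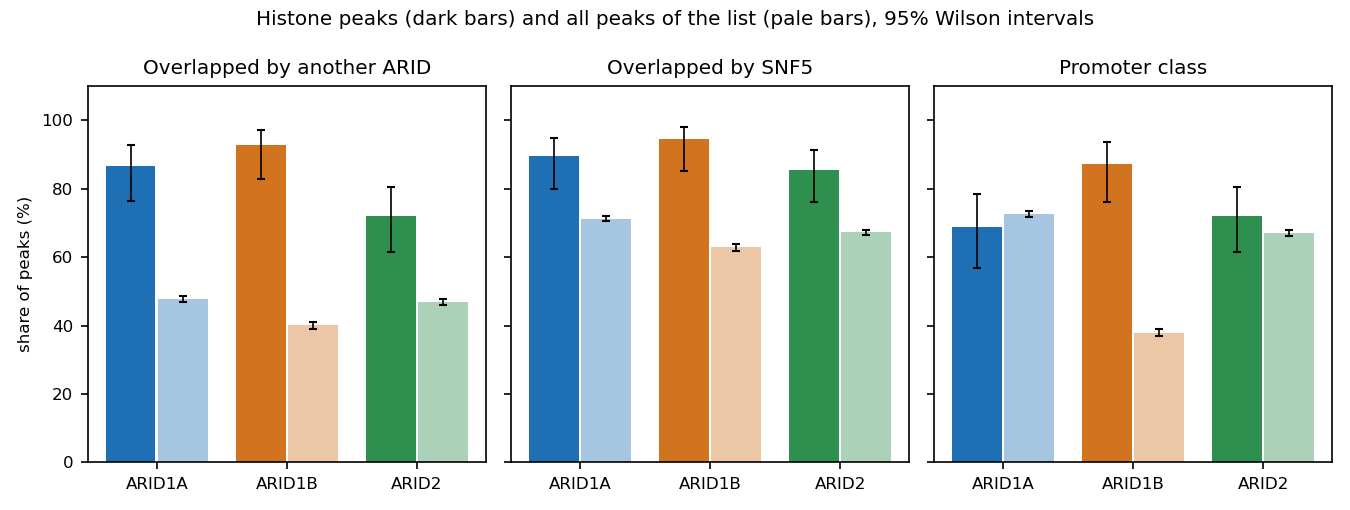
Share of peaks, in percent, overlapped by another ARID, overlapped by SNF5 or of the deposited promoter class, for histone peaks (dark bars) and all peaks (pale bars) of each ARID list, with 95% Wilson intervals. In the first 2 panels each dark bar lies above its pale bar, and in the third only ARID1B shows a wide gap.

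The promoter class itself set histone peaks apart only in the ARID1B list. It held 48 of 55 ARID1B histone peaks (87.3%, interval 76.0 to 93.7%), against 37.9% of all ARID1B peaks. It held 46 of 67 ARID1A histone peaks (68.7%, interval 56.8 to 78.5%, against 72.6%) and 59 of 82 ARID2 histone peaks (72.0%, interval 61.4 to 80.5%, against 67.0%), and both intervals include the share over the whole list. Distal peaks made up 20.9% of ARID1A histone peaks (interval 12.9 to 32.1%), against 12.6% of all ARID1A peaks. They made up 20.7% for ARID2 (interval 13.4 to 30.7%, against 13.6%) and 10.9% for ARID1B (interval 5.10 to 21.8%, against 25.8%). The distal class was thus more frequent than in the whole list for ARID1A and less frequent for ARID1B. For ARID2 its interval included the share over the whole list. Most distal ARID1A histone peaks carried pseudogene names, and among coding names only HIST1H4B and HIST1H1C had one. The higher distal share for ARID1A is therefore not a trait of peaks with coding names. Of those, 44 of 53 were in the promoter class (83.0%), against 2 of 14 with pseudogene names. Histone peaks were wider than the lists they came from. Median widths were 356 bp against 218 bp for ARID1A, 246 bp against 164 bp for ARID1B and 382.5 bp against 189 bp for ARID2.

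The widest histone peaks covered whole genes. In the ARID2 list they were a peak of 2204 bp at HIST1H2BC, which reached over the shared promoter and HIST1H2AC, a peak of 1741 bp over HIST1H2AD and HIST1H2BF, and a peak of 1512 bp at HIST1H2BB. In the ARID1A list they were 1854 bp at HIST2H2AA3, 1635 bp at HIST1H2BC and 1403 bp at HIST1H4E. In the ARID1B list all 3 lay at H4 genes, with 1573 bp at HIST1H4J, 1274 bp at HIST1H4K and 1269 bp at HIST2H4B, and the first of these was wider than 99.9% of ARID1B peaks. Windows of 50 bases that occur more than once in the genome made up 30.2%, 33.6% and 100% of these ARID1B peaks. They also made up 100% of the ARID1A peak at HIST2H2AA3, so these peaks cannot be fully assigned to a single gene copy. At HIST1H4J and HIST1H4K the ARID1B peak was also wider than the ARID1A peak (462 and 601 bp) and the ARID2 peak (832 and 1030 bp) over the same start. At HIST1H2BC the order was the opposite, with ARID1B in peaks of 169 and 779 bp. Histone genes had a median length of 492.5 bp, and the median gene with a peak at its start was covered over 72.2% of its length by ARID1A, 36.7% by ARID1B, 78.0% by ARID2 and 100% by SNF5.

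Position relative to the start differed between the subunits. Of histone genes with a peak within 1000 bp, the start base itself was covered at 33 of 40 for ARID1A (82.5%), 35 of 41 for ARID2 (85.4%) and 19 of 38 for ARID1B (50%, interval 34.9 to 65.2%). Over all protein-coding genes the corresponding shares were 52.5%, 39.9% and 25.8%, so ARID1B covered the start least often in both. SNF5 covered it at 41 of 45, against 67.6%. Along the histone genes, ARID1B coverage had 2 maxima, with 52.6% of genes covered at 300 bp upstream and 57.9% at 100 bp downstream, and 36.8% at 150 bp upstream between them. These shares are 20, 22 and 14 of 38 genes, and 8 head-to-head pairs whose genes share an interval are among them. In those pairs 193 to 245 bp separate the starts, so 300 bp upstream of a gene lies downstream of its partner's start. Both maxima thus count some of the same peaks, and genes with a single promoter were not profiled apart. Over all protein-coding genes with ARID1B at the start, the shares at the same positions were 22.6%, 20.1% and 24.99%, with no dip at 150 bp upstream. At that position ARID1A and ARID2 covered 52.5% and 73.2% of histone genes. Among the ARIDs, ARID2 covered the most histone genes at 400 bp downstream, with 78.0%, where ARID1A and ARID1B covered 42.5% and 42.1%. SNF5 covered 84.4% there and still 73.3% at 700 bp downstream, where ARID2 covered 31.7%. Over all protein-coding genes, ARID2 covered 14.5% at 400 bp downstream. These shares move with the width of the peaks, which was smallest for ARID1B, and no spread between replicates is available for them.

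**Figure D4:**
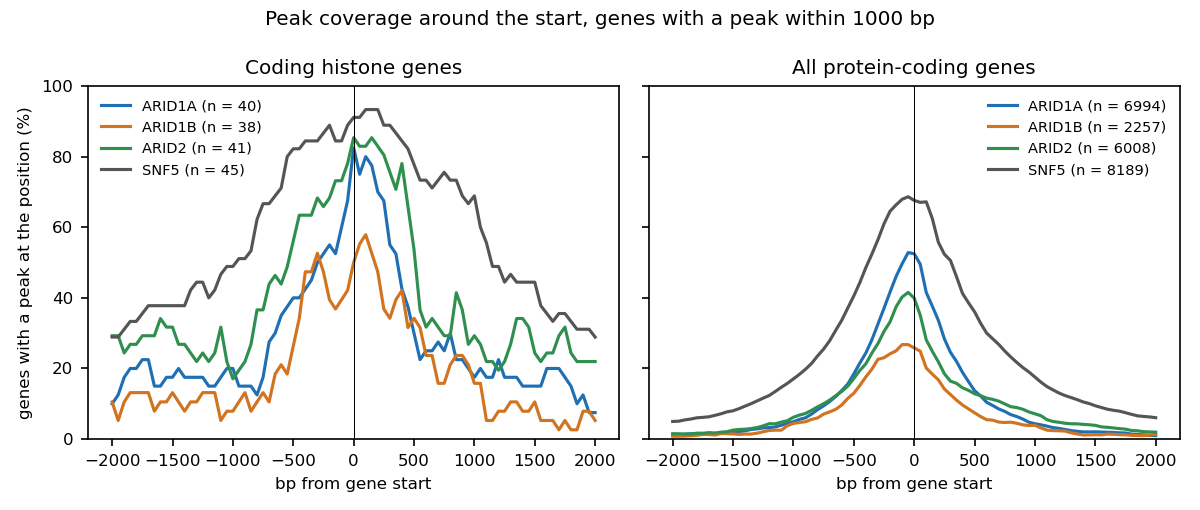
Share of genes, in percent, with a called peak at each position (steps of 50 bp) from 2000 bp upstream to 2000 bp downstream of the start, among genes with a peak of that subunit within 1000 bp, for coding histone genes and all protein-coding genes. The ARID1B line dips between 300 bp upstream and 100 bp downstream of histone starts, and the ARID2 line stays high to 400 bp downstream. Head-to-head pairs place the same peaks upstream of a gene and downstream of its partner.

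The shared H2A and H2B promoters showed how the 3 ARIDs were arranged at single loci. Of the 13 head-to-head pairs, 8 had all 3 ARIDs and SNF5 within 1000 bp of both starts, and 5 had none of the 4. Among these 5 was HIST1H3F and HIST1H2BH, a pair of an H3 and an H2B gene with 978 bp between the starts. Counting a single shared base, ARID1A had a peak between the starts at 8 pairs, ARID2 at 7 and ARID1B at 6. Some of these peaks reached into the interval only by an edge. At HIST1H2AK and HIST1H2BN, for example, the ARID1B peak ran from -10 to 74 bp of the HIST1H2BN start. These counts therefore do not rank how far each subunit covered the promoters. At the pair HIST1H2BC and HIST1H2AC, ARID1A (1635 bp) and ARID2 (2204 bp) each spanned the promoter and both starts, whereas ARID1B lay 97 bp from the start of HIST1H2BC and 25 bp from that of HIST1H2AC and left the interval free. At HIST1H2AD and HIST1H2BF, 1 ARID2 peak of 1741 bp covered both starts, and the ARID1B peak of 550 bp covered that of HIST1H2AD. At HIST1H2AM and HIST1H2BO, only the edges of ARID1A and ARID1B peaks lay between the starts. ARID1A peaks ran from -1 to 358 bp of the HIST1H2AM start and from -16 to 127 bp of the HIST1H2BO start (negative is upstream). The ARID1B peak ran from -14 to 200 bp of the HIST1H2BO start. ARID2 had its nearest peaks 135 and 375 bp from these starts, so most of this interval was free of all 3. The name HIST1H2AM did not occur in any list, since the deposited annotation gave its peaks to HIST1H3J and HIST1H2BO. The canonical start of HIST1H3J lay 2001 bp from the nearest ARID1A peak, although 2 peaks of that name carry deposited distances of 97 and 273 bp, and for HIST4H4 an ARID2 peak 1292 bp into the transcribed side carries a distance of 127 bp. Such distances differ from those to the canonical starts used here, and the start they refer to was not examined.

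HIST1H1C, which encodes a linker histone, was one of the coding genes richest in peaks. It held 2 ARID1A, 2 ARID1B and 5 ARID2 peaks, of which 4 were in the promoter class. ARID1A (1338 bp) and ARID2 (1290 bp) covered its start, and ARID1B began 767 bp downstream, beyond the end of the gene. Its SNF5 peak, 2589 bp wide, had a score of 38, higher than 97.7% of SNF5 peaks. One ARID2 peak of 138 bp lay 15312 bp away with no overlap. HIST1H1E had 1 peak of each ARID, of 507, 629 and 550 bp for ARID1A, ARID1B and ARID2, and shared an SNF5 peak of 2983 bp with the neighbouring HIST1H2BD.

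The SNF5 peaks at histone genes ranked high in their own list. The 36 SNF5 peaks that overlapped a histone peak had a median score of 27.5 (range 16 to 47), against 19 over 20718 SNF5 peaks. Their median width was 1891 bp, against 535 bp, and 17 of them (47.2%, against 5.19%) were at least 2000 bp wide. The whole list includes 10180 SNF5 peaks without any ARID (median width 383 bp), a class that the 36 exclude by selection. With all 3 ARIDs, 68.0% of histone SNF5 peaks were at least 2000 bp wide, against 31.4% over the list. With 1 or 2 ARIDs, 0% of them were that wide, against 2.21% and 7.89%. Over the whole list the median score was higher with more ARIDs, from 17 for SNF5 peaks with none to 26 for those with all 3 (n = 2084). The median for the 25 histone SNF5 peaks with all 3 ARIDs was 29. With 2 ARIDs it was 19 (n = 7), against 22 over the list, and with 1 it was 20.5 (n = 4), against 20. The highest scores were at H4 genes, with 47 at HIST1H4C and at HIST1H4J and 41 at HIST1H4K. The widest histone SNF5 peak, of 6080 bp, covered HIST1H2BC and HIST1H2AC and overlapped 14 ARID histone peaks.

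**Figure D5:**
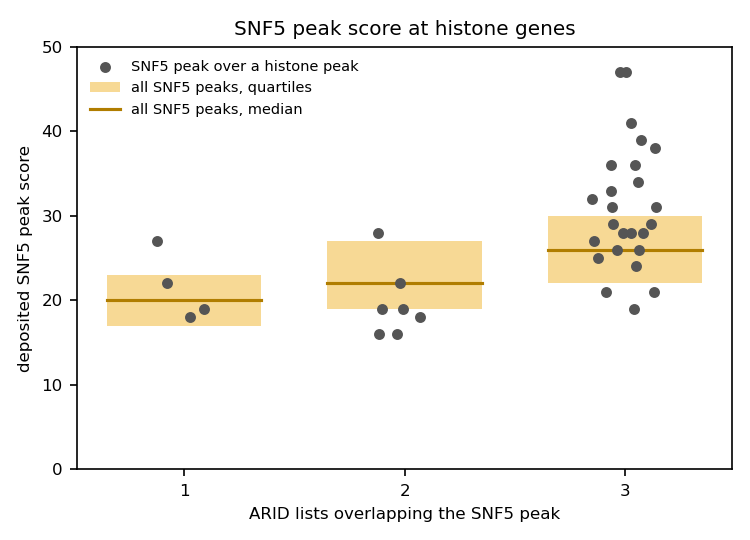
Deposited SNF5 peak score (no unit) against the number of ARID lists that overlap the SNF5 peak, with points for the 36 SNF5 peaks over histone peaks, shaded boxes for the quartiles and lines for the median of all SNF5 peaks of that class. Points with 3 ARIDs reach 47 and have a median of 29, above the line at 26.

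Gene names shared by the lists gave a similar count. Of 48 histone names, 30 occurred in all 3 ARID lists (62.5%, against 21.1% of 12428 names), 11 in 2 lists and 7 in 1. Of the 30, 28 were coding genes. In H2A they were HIST1H2AB, HIST1H2AC, HIST1H2AD, HIST1H2AJ, HIST1H2AK, HIST2H2AA3, HIST2H2AB and HIST2H2AC. In H2B they were HIST1H2BC, HIST1H2BD, HIST1H2BG, HIST1H2BN, HIST1H2BO and HIST2H2BE. In H3 they were HIST1H3B, HIST1H3C, HIST1H3D, HIST1H3H and HIST2H3A, and in H4 HIST1H4B, HIST1H4C, HIST1H4E, HIST1H4H, HIST1H4J, HIST1H4K and HIST2H4B, beside HIST1H1C and HIST1H1E. Names understate sharing, since a peak between head-to-head genes takes 1 name. HIST1H2BF, for example, was named only in the ARID1A list and had all 3 ARIDs at its start.

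Pseudogene names took 35 of the 204 peaks and behaved differently. They lay at a median of 5877 bp from the named start, against 381.5 bp over all histone peaks, and 13 of them were in the promoter class. The name HIST1H3PS1, an H3 pseudogene, was the most frequent of all, with 9 ARID1A, 3 ARID1B and 8 ARID2 peaks. Of these 20 peaks, 16 were distal, at up to 16833 bp, 15 were overlapped by another ARID and 18 by SNF5. In the gene order of RefSeq (GRCh38.p14), 13 tRNA genes and no protein-coding gene lie between HIST1H4H and BTN3A2, the interval that holds HIST1H3PS1. Whether the peaks lie on those tRNA genes was not tested, as the tRNA positions at hand belong to another build. Other pseudogene names marked distant sites. HIST1H1PS2 had 3 ARID1A and 2 ARID2 peaks at 23255 to 24229 bp, the farthest histone peaks of both lists, and HIST1H4PS1 had 1 ARID1A peak at 11177 bp. HIST1H1PS1 had 6 peaks at most 655 bp from its start, and 5 of them lay under the SNF5 peak shared with HIST1H3D and HIST1H2AD. In the ARID1B list the farthest histone peak was at 9267 bp, at HIST1H3PS1.

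Histone genes outside the clusters and the genes that serve histone mRNA were examined by the same limit of 1000 bp. Of 12 replication-independent histone genes, which encode variants used throughout the cell cycle, 3 had all 3 ARIDs (H1F0, H1FX and H3F3B), 8 had any and 4 had none. H3F3A, which like H3F3B encodes the replacement form of H3, had ARID1A over its start and ARID2 at 400 bp, and H2AFZ had ARID1A only. Of 20 genes for histone transcription and mRNA end processing, 3 had all 3 ARIDs. These were NPAT, the coactivator of histone genes, SLBP, which binds the stem-loop of histone mRNA, and CPSF3, the endonuclease that cleaves it. At NPAT no ARID peak covered the start, and the nearest lay 580 bp (ARID1A), 481 bp (ARID1B) and 152 bp (ARID2) away. No ARID peak carried its name. In all, 12 of the 20 had any ARID, against 41.9% of all protein-coding genes, and 15 had SNF5, against 41.2%. CASP8AP2, LSM10, E2F4 and GON4L had SNF5 without an ARID. Both lists hold few genes, and their shares with all 3 ARIDs, 3 of 12 and 3 of 20, stand beside 8.31% of all protein-coding genes and 37 of 70 clustered histone genes.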

How the data were processed

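Per the study's methods, the authors aligned single-end reads of MNase-digested, crosslinked chromatin to hg19 with bowtie2, filtered duplicates, merged both replicates, called broad peaks with MACS2, joined neighbouring peaks and removed blacklisted regions. Each deposited ARID peak carries other values besides its boundaries, namely a feature class, a nearest gene from Gencode, a distance in bp, a label for overlap with other ARIDs and a chromatin state. The deposited SNF5 list carries a peak score from the peak caller. No library counts were used, so depth is unknown.

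Starts are printed counted from 1. Peaks overlapped when they shared at least 1 bp. Gene starts were those of canonical transcripts in Gencode v44 lifted to GRCh37, the assembly of hg19, for 65 of 70 coding histone genes. A further 4 were placed by an exact match of their RefSeq promoter and 1 by its gene start. Pseudogenes followed RefSeq. For coding names the deposited distance lay within 100 bp of that from the peak centre to this start in 52 of 53 cases (ARID1A), 50 of 50 (ARID1B) and 63 of 66 (ARID2). Chromatin states were not used, since overlapping ARID1A and ARID2 histone peaks carried the same state in 46 of 66 cases. With 1 pooled list per subunit no test was made. A further marker gene of the cell line, beside those named, is not reported here. Members and gene lists were chosen with earlier results of these data known. Named genes are those present in all 3 ARID lists, the 3 widest peaks and the farthest peak of each list, the 3 highest SNF5 scores, HIST2 to HIST4 genes with a peak, and head-to-head pairs with all 3 ARIDs. Other genes, such as HIST1H4A, HIST1H4D and HIST1H3A, were named after their values were seen. Overlap code was tested on simulated intervals (Python 3.11.15, pandas 2.3.3, pysam 0.24.0).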

Additional observations from a re-analysis of the deposited data

How the results depend on the processing

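Of 70 recalculated values, 45 stayed close to the main one, that is within 1.5 times for counts and within the Wilson interval for shares. Joining peaks at most 1000 bp apart left 39 ARID1A, 28 ARID1B and 35 ARID2 histone peaks, and the widest 50% of peaks held 44 ARID1A histone peaks. A reciprocal overlap of 50% lowered the share overlapped by another ARID to 35.8%, 30.9% and 28.0% for ARID1A, ARID1B and ARID2, against 17.7%, 12.5% and 17.1% of all peaks. For SNF5, whose peaks are wider, it gave 8.96%, 3.64% and 12.2%, against 13.0%, 5.58% and 7.56%. The excess over all peaks was thus lost for ARID1A and ARID1B, and no interval was computed for these small shares. A gap of at most 1000 bp gave 97% and 93.9% for another ARID (ARID1A, ARID2; 72.7% and 74.6% of all peaks) and 100%, 98.2% and 96.3% for SNF5, against 86.3%, 76.0% and 86.2%. Within the promoter class, another ARID overlapped 95.7% of ARID1A and 97.9% of ARID1B histone peaks, and SNF5 overlapped 100% of ARID1A histone peaks. Distances of at most 500 bp held 53.7%, 65.5% and 51.2% of ARID1A, ARID1B and ARID2 histone peaks, against 63.3%, 30.6% and 53.4% of all peaks, and those of at most 5000 bp held 83.6%, 96.4% and 90.2%, against 85.9%, 59.3% and 84.5%. An ARID1B peak lay over the start base itself of 19 genes. Leaving out peaks with repeated sequence, chosen after seeing the data, left 26 of 76 regions with all 3 ARIDs. No paired analysis was possible because both replicates of each subunit were merged before peaks were called, and for the same reason no replicate could be left out.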
